A study of Mus musculus with 12 samples.

Results

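Tspan3, a gene for a cell-surface tetraspanin, and Cxcr4, a gene for a chemokine receptor, were followed across 2 mouse leukaemias, each with wild-type or mutant Msi2. They were chosen by name, because the study behind these arrays links this tetraspanin to the response to the Cxcr4 ligand, and they are 2 of 18193 genes named on the array. Each is read by 1 probe set, a group of short probes for 1 transcript: 1416009_at for Tspan3 (Entrez gene 56434) and 1448710_at for Cxcr4 (Entrez gene 12767). Donor stem and progenitor cells sorted as KLS were taken either from wild-type mice or from Msi2 Gt/Gt mice, in which a gene trap interrupts Msi2. The strain given for all samples, the wild-type ones included, is B6;CB-Msi2Gt(pU-21T)2Imeg. The cells were infected with MLL-AF9 to give acute myeloid leukaemia (AML), or with BCR-ABL and NUP98-HOXA9 together to give blast crisis chronic myeloid leukaemia (bcCML), and were transplanted. No animal was treated further, and mouse ages are not given in the sources used here. After disease was established, leukaemic stem cells were sorted as Lin-Sca1-ckit+ from AML but as Lin- from bcCML. There were 4 groups of 3 arrays: wild-type AML, Msi2 mutant AML, wild-type bcCML and Msi2 mutant bcCML. Because each leukaemia had its own oncogenes and its own sort, these cannot be told apart in any comparison between the leukaemias.

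Tetraspanins are small proteins that cross the membrane 4 times and gather integrins, immunoglobulin-domain partners and proteases into membrane patches. Cxcr4 is the G protein-coupled receptor for Cxcl12, a chemokine made by marrow stroma, and the pair guides blood stem cells and many leukaemia cells to the marrow and holds them there. Msi2, the gene mutated here, encodes an RNA-binding protein that controls the translation and stability of its target transcripts in blood stem cells and myeloid leukaemias.

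The DNA just before the start of each gene is shown because the test results of the genes differed. Tspan3 was called with Msi2 genotype in AML, close to the threshold, and Cxcr4 was not. Both differed between the leukaemias. Whether this DNA has a part in any of these differences was not tested. Each sequence is the 100 bases before the gene's annotated start, 5′ to 3′ on the gene's own strand, which is the minus strand for both, from RefSeq on GRCm38.p6. Capitals mark matches, on either strand, to the motifs searched. The Tspan3 window is chr9:56161071-56161170 and the Cxcr4 window is chr1:128592300-128592399.
Tspan3: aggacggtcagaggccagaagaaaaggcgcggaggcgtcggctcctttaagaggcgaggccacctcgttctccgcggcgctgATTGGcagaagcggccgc
Cxcr4: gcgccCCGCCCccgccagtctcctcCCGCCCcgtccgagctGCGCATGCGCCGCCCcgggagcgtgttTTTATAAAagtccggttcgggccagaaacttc
The motifs searched were NRF-1 (GCGCATG, the first 7 letters of its palindromic site), the TATA box (TATAAA), the GC box (GGGCGG) and the CCAAT box (CCAAT), each on both strands. The Cxcr4 window held 2 overlapping NRF-1 matches, 1 on each strand, between 59 and 50 bases before the start, and these letters were present in 2.01% of 32851 windows of the same length. It also held 3 GC-box matches, the last of them overlapping an NRF-1 match by 1 base, and 2 overlapping TATA-box matches, 1 on each strand, between 32 and 25 bases before the start. GC boxes were found in 24.7% of the windows and TATA boxes in 5.56%. The Tspan3 window held 1 CCAAT match, on the other strand 18 to 14 bases before the start, and no match to the other 3 motifs. CCAAT was found in 18.9% of the windows. Both windows were rich in CG pairs, with 12 for Tspan3 and 13 for Cxcr4 against a median of 3.

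Values are GCRMA intensities, in linear units. The arrays were alike in brightness, with medians of 13.1 to 13.8 units, a floor of 4.49 and 48.4% to 48.8% of probe sets above 16 units, the level used here to keep a gene for testing. One array stood furthest apart. Msi2 mutant AML array 1 lay at -58.2 on the second principal component (4.90% of the variance) where the other AML arrays lay between 1.20 and 20.0, and its mean log2 level over 11 monocyte and macrophage genes was 6.77 against 7.88 to 8.62 on those arrays. The Tspan3 and Cxcr4 differences that rest on this AML array are therefore given with and without it. Among the bcCML arrays, wild-type array 1 lay at -31.9 on that component and the others between -5.44 and 19.0. Msi2 itself followed the labels. In AML its probe set fell by 2.11 ± 0.34 (SE) on the log2 scale, from 312 ± 125 to 69.6 ± 17.0 units (SD, n = 3 each; limma adjusted p = 0.0211), and in bcCML it fell by 2.63 ± 0.34 (limma adjusted p = 0.0200), from 3827 to 605 units on average, so signal remained in the mutant. The bcCML call held in 16 of 24 alternative fits and the AML call in 21 of 23. With every probe set tested, the other 4 Msi2 probe sets that passed the filter were also lower in mutant bcCML. Their log2 differences of -2.17 to -1.11 did not pass (limma adjusted p = 0.251 to 0.555), and the mean of these 5 gave -1.69 (limma adjusted p = 0.194). The remaining Msi2 probe sets lay near the floor, at most 4.71 units on any array. The sorted cells showed Kit at 78.2 to 546 units and Ptprc (CD45, the pan-leukocyte surface protein) at 1113 to 5286 over all arrays, while the T cell gene Cd3e stayed at or below 9.53. Cd34, a progenitor surface protein, read 304 to 1800 units in wild-type and 101 to 312 in Msi2 mutant AML, and 507 to 1363 in bcCML. Fcgr3, an Fc receptor of myeloid progenitors and mature myeloid cells, read 5724 to 9367 units in AML, 1202 to 2941 in wild-type bcCML and 223 to 486 in Msi2 mutant bcCML. Their part in the results below was not tested. Itgam, a mature myeloid integrin, read 35 to 86.6 in AML and 4.49 to 4.52, the floor, in bcCML.

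Tspan3 was lower in Msi2 mutant than in wild-type AML. The 3 wild-type AML arrays read 74.9, 108.9 and 57.9 units and the 3 mutant arrays 6.92, 20.6 and 30.3. No mutant array reached the lowest wild-type array, and array 1 of the mutants lay below 16 units. The group means were 80.5 ± 26.0 and 19.3 ± 11.7 units (SD, n = 3 each). The log2 difference was -2.26 ± 0.46 (SE; 95% interval -3.28 to -1.23; limma adjusted p = 0.0445), a 4.78-fold reduction with an interval of 2.35- to 9.74-fold. Of all 10817 genes tested in AML, 1.52% passed the threshold of 0.05, 1.14% lower and 0.379% higher in the mutant, and the mutant arrays lay wholly below the wild-type arrays for 11.6% and wholly above them for 5.18%.

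The call for Tspan3 in AML lay close to the threshold. Without Msi2 mutant AML array 1 the difference was smaller but called, at -1.64 (limma adjusted p = 0.0305). Leaving out Msi2 mutant AML array 3 gave -2.70 (limma adjusted p = 0.0235). The call was lost when any other array was left out, with limma adjusted p values of 0.0566 to 0.141, and the highest of these came without wild-type AML array 1. The log2 difference stayed between -2.70 and -1.64 in all 12 such fits. The call was also lost when every probe set was tested in place of 1 per gene (limma adjusted p = 0.0530), without a filter on dim genes (limma adjusted p = 0.1) and in a fit of the 6 AML arrays alone (limma adjusted p = 0.272). With 16 units added to every value the difference was smaller, at -1.48, and was called (limma adjusted p = 0.0292).

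**Figure D1:**
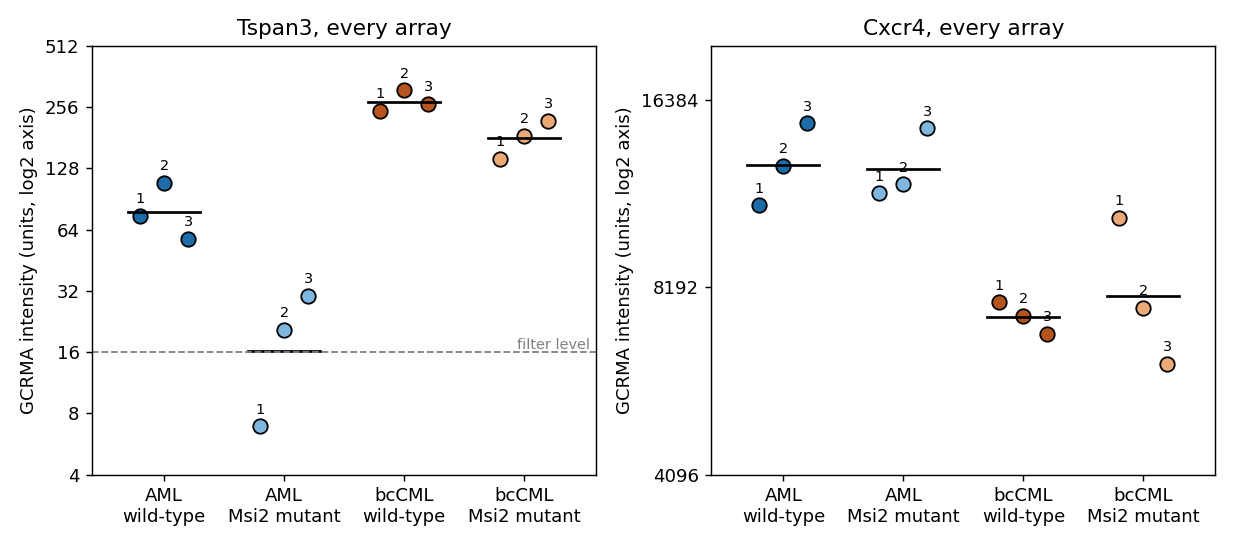
GCRMA intensity (log2 axis, units) of Tspan3 and Cxcr4 on each of the 12 arrays in 4 groups of 3, with points for arrays and bars for geometric group means. For Tspan3 the Msi2 mutant AML arrays (6.92 to 30.3) lie below the wild-type AML arrays (57.9 to 108.9), and for Cxcr4 the AML groups overlap and lie above the bcCML groups.

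**Figure D2:**
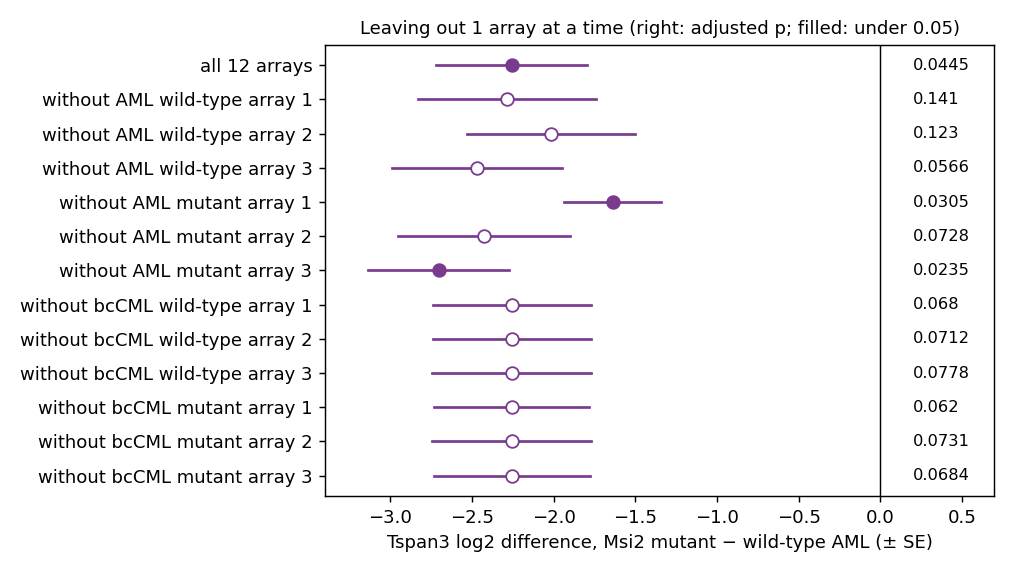
Log2 difference of Tspan3, Msi2 mutant minus wild-type AML, with all 12 arrays and with each array left out in turn (points with SE; the limma adjusted p is at the right, and filled points are under 0.05). The difference stays between -2.70 and -1.64, and the call is kept only without Msi2 mutant AML array 1 or 3.

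In bcCML the Tspan3 arrays of the genotypes did not overlap either, but the difference did not pass the test. Wild-type arrays read 246, 310.2 and 266 units and Msi2 mutant arrays 143, 185 and 219.6. The means were 274 ± 32.8 and 183 ± 38.3 units (SD, n = 3 each). The log2 difference was -0.60 ± 0.46 (SE; 95% interval -1.63 to 0.43; limma adjusted p = 0.792), and the interval reaches a 3.09-fold reduction. As single arrays were left out this difference stayed between -0.74 and -0.43 and was never called. The SE of 0.46 pools all 4 groups, so the interval also carries the AML spread. The log2 SD of Tspan3 was 0.17 in wild-type and 0.31 in Msi2 mutant bcCML, against 0.46 and 1.10 in AML. With only the 6 bcCML arrays the difference was again -0.60, with a smaller SE of 0.19. It was not called in that fit, where 0 genes were. In bcCML 0.139% of genes passed the threshold, 0.037% being higher in the mutant, and mutant arrays lay wholly below wild-type arrays for 10.1% of genes. Tspan3 was thus lower on every mutant array than on every wild-type array of the same leukaemia, and the mean of both differences, the shared effect, was -1.43 ± 0.33 (SE; limma adjusted p = 0.0938; 0.471% of genes passed). Without Msi2 mutant AML array 1 the shared effect was -1.12 and was called (limma adjusted p = 0.0424). The interaction, which is how far the bcCML difference exceeded that in AML, was 1.66 ± 0.65 (SE; 95% interval 0.20 to 3.11; limma adjusted p = 0.456). No gene passed that test (0%), and 1014 of the 10817 genes had an unadjusted limma p under 0.05, so a difference between the leukaemias in the size of the Tspan3 change was not called. It was 1.04 without Msi2 mutant AML array 1 (limma adjusted p = 0.426) and 1.04 to 2.10 as single arrays were left out.

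Cxcr4, the receptor, did not pass the test with Msi2 genotype in either leukaemia. Wild-type AML arrays read 11092, 12851 and 15022 units and Msi2 mutant AML arrays 11592, 11987 and 14746. The groups overlapped over most of their range, with means of 12988 ± 1969 and 12775 ± 1718 units (SD, n = 3 each). The log2 difference was -0.021 ± 0.20 (SE; 95% interval -0.48 to 0.43; limma adjusted p = 0.996), so a change of up to 1.39-fold down or 1.35-fold up lies within the interval. Without Msi2 mutant AML array 1 it was 0.045.

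In bcCML the wild-type Cxcr4 arrays read 7750, 7370 and 6891 units, close together, and the Msi2 mutant arrays 10598, 7583 and 6175. The mutant arrays spread to both sides of the wild-type ones. The means were 7337 ± 430.3 and 8119 ± 2259 units (SD, n = 3 each), and the log2 difference was 0.11 ± 0.20 (SE; 95% interval -0.34 to 0.57; limma adjusted p = 0.946). Array 1 of the mutants carried that sign, and without it the difference was -0.099. The shared effect on Cxcr4 was 0.045 ± 0.14 (SE; limma adjusted p = 0.926), and the interaction was 0.13 ± 0.29 (SE; 95% interval -0.51 to 0.78; limma adjusted p = 0.921). Without Msi2 mutant AML array 1 these were 0.078 and 0.067, neither called.

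The members differed between the leukaemias in opposite directions. In wild-type cells Tspan3 was 3.50-fold higher in bcCML than in AML, a log2 difference of 1.81 ± 0.46 (SE; 95% interval 0.78 to 2.84; limma adjusted p = 0.0115). Cxcr4 was 1.76-fold lower in wild-type bcCML, at -0.81 ± 0.20 (SE; 95% interval -1.27 to -0.36; limma adjusted p = 0.0106). For both genes every bcCML array lay on 1 side of every AML array of the same genotype. That setting is common here, since 36.9% of genes passed the threshold between the wild-type groups (17.7% higher and 19.3% lower in bcCML) and 52.4% did not overlap. Both wild-type calls held without any single array, with limma adjusted p values of at most 0.0426 for Tspan3 and 0.0395 for Cxcr4. RNA of a whole sorted sample was measured, so fewer cells with a transcript and less of it per cell cannot be told apart.

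In Msi2 mutant cells the gap in Tspan3 was wider, 11.1-fold, and that in Cxcr4 was 1.60-fold. The log2 differences, bcCML minus AML, were 3.47 ± 0.46 for Tspan3 (SE; 95% interval 2.44 to 4.49; limma adjusted p = 0.000187) and -0.68 ± 0.20 for Cxcr4 (SE; 95% interval -1.14 to -0.23; limma adjusted p = 0.0205). Of all genes 45.1% passed (23.2% higher and 21.9% lower in bcCML) and 55.5% did not overlap. These comparisons and the genotype comparisons share arrays, and the difference between the wild-type and the mutant gap is the interaction given above. Without Msi2 mutant AML array 1 the mutant gap was 2.85 for Tspan3 (limma adjusted p = 7.36e-05) and -0.75 for Cxcr4 (limma adjusted p = 0.0272). The Cxcr4 call among mutants was lost without Msi2 mutant AML array 3 (limma adjusted p = 0.0711), Msi2 mutant bcCML array 2 (limma adjusted p = 0.0611) or Msi2 mutant bcCML array 3 (limma adjusted p = 0.0809).

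Ordered by mean level, Tspan3 was highest in wild-type bcCML, then Msi2 mutant bcCML, wild-type AML and Msi2 mutant AML. The first neighbours did not differ by the test. The middle pair, Msi2 mutant bcCML and wild-type AML, did not overlap and differed by 1.21 ± 0.46 on the log2 scale (SE; limma adjusted p = 0.0638; 37.2% of genes passed and 54.4% did not overlap), a comparison added after the values were seen. Cxcr4 was highest in wild-type AML, then Msi2 mutant AML, Msi2 mutant bcCML and wild-type bcCML. Only the step from AML to bcCML was beyond the spread. Msi2 mutant bcCML was lower than wild-type AML by a log2 difference of -0.70 (limma adjusted p = 0.0214). That call was lost without wild-type AML array 2 or 3 or Msi2 mutant bcCML array 2 or 3, with limma adjusted p values of 0.0507 to 0.0817.

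**Figure D3:**
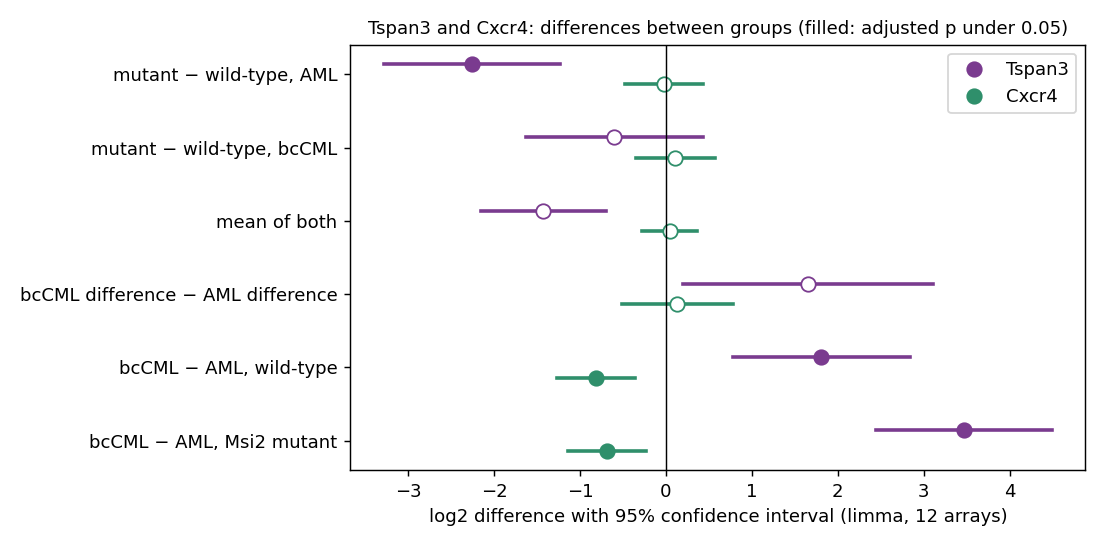
Log2 differences of Tspan3 and Cxcr4 in 6 comparisons from limma over all 12 arrays, with 95% confidence intervals (filled points have an adjusted p under 0.05). Tspan3 is called in Msi2 mutant AML (-2.26) and in both bcCML minus AML comparisons (1.81 and 3.47), and Cxcr4 in the latter only (-0.81 and -0.68).

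Genes used as markers of mature blood cell types moved between the groups as well. The summed level of 10 mature neutrophil genes was 77507 to 95259 units in wild-type AML and 110503 to 139118 in Msi2 mutant AML, against 967 to 5572 in bcCML. Of these 10 genes in AML, Mmp8, a granule collagenase, had a log2 difference of -3.34 (limma adjusted p = 0.00499) and Ltf, the granule protein lactoferrin, one of 2.66 (limma adjusted p = 0.0467), against 1.52% of all genes called. Mmp8 was called in 22 and Ltf in 9 of 23 alternative fits. The 11 monocyte and macrophage genes summed to 13681 to 14522 units in wild-type AML, 5698 to 28285 in Msi2 mutant AML and 1077 to 2000 in bcCML, where Csf1r, Cd14 and C1qb were below 16 units on every array. The 8 erythroid genes summed to 2791 to 4996 units in AML and 10004 to 22463 in bcCML. In wild-type AML 7 of them, all but Tfrc, were below 16 units on every array, and in Msi2 mutant AML 6 were. The 6 erythroid genes tested were all called higher in wild-type bcCML by limma, against 17.7% of all genes. The 6 megakaryocyte genes summed to 53.0 to 972 units in AML and 3915 to 11525 in bcCML. Among 9 T and NK cell genes, 8 were below 16 units on every AML array and 7 on every bcCML array, Cd3e, Cd4 and Cd8a among them. Their summed level was 1524 to 8070 units in AML, where the gene not below 16 was Nkg7, and 7659 to 10693 in bcCML, where Gzma was not below 16 on every array either. Nkg7, the 1 gene of these tested, was higher in wild-type bcCML than in wild-type AML by 1.55 (limma adjusted p = 0.00740). The 9 B cell genes summed to 930 to 2257 units in AML and 129 to 295 in bcCML, with Pax5 and Ms4a1 below 16 on every array. Of the 4 tested, 2 were called lower in wild-type bcCML, against 19.3% of all genes, and 0 were called higher. Cd79b differed by -4.97 (limma adjusted p = 0.000956), and Ighm was at least 29.9-fold higher in wild-type AML (limma adjusted p = 2.40e-05). Whether these transcripts came from the leukaemic cells or from others in the sort was not tested, nor was their part in the Tspan3 and Cxcr4 differences.

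The ligands of Cxcr4 and the receptors that share them formed the first of 9 gene lists set beside the members. Cxcl12 was near the floor. Of its 3 probe sets, 2 did not exceed 5.20 units and the third reached 68.7 on wild-type AML array 2 alone. Ackr3, the other Cxcl12 receptor, was at the floor throughout (4.49 to 4.52). The 12 marrow stromal and endothelial genes, the usual source of Cxcl12, included Pdgfra, Cdh5 and Kdr below 16 units on every array, and summed to 1198 to 4649 units in AML and 278 to 1601 in bcCML. Of the 6 tested, Col1a2 was at least 9.34-fold higher in wild-type bcCML than in wild-type AML (limma adjusted p = 0.000929). Vcam1 and Pecam1 were lower there, by log2 differences of -6.56 and -1.70 (limma adjusted p = 1.54e-05 and 0.0421). Of all genes 17.7% were called higher and 19.3% lower.

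Mif, a cytokine that also binds Cxcr4, was lower in Msi2 mutant AML. Wild-type AML arrays read 8250, 8216 and 7073 units and mutant arrays 5069, 5295 and 5234. The groups did not overlap, and Mif fell by 0.59 ± 0.12 (SE; limma adjusted p = 0.0472). For 11.6% of all genes the mutant AML arrays lay wholly below the wild-type ones, and 1.52% were called. In bcCML the Mif log2 difference was -0.27 (limma adjusted p = 0.604). Mif was called in AML in 9 of 23 alternative fits, with limma adjusted p values of 0.00737 to 0.204. Between wild-type cells Mif was higher in bcCML, with a log2 difference of 0.78 (limma adjusted p = 0.000764), the direction of Tspan3 and not of Cxcr4. Of all genes 17.7% were called higher there. Of the other list members tested, Cxcl14, a chemokine that binds Cxcr4, Cd74, the Mif receptor, and Dpp4, the protease that cleaves Cxcl12, passed in neither genotype comparison.

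Among 19 tested genes for the G proteins, receptor kinases, arrestins and Rgs proteins that carry or end the Cxcr4 signal, 1 was called in AML, where 1.52% of all genes were. Grk3, a kinase that phosphorylates Cxcr4 and desensitises it, read 1401, 1208 and 1724 units in wild-type AML and 2577, 3892 and 3570 in Msi2 mutant AML. The groups did not overlap, as for the 5.18% of all genes that lay wholly higher in the mutant, and Grk3 rose by 1.21 ± 0.25 (SE; limma adjusted p = 0.0472). It was called in 9 of 23 alternative fits, and its 3 probe sets gave 1.19, 1.31 and 1.21. Gng2, a G protein gamma subunit, went from 2830 to 1044 units on average, and its log2 difference of -1.42 missed the threshold (limma adjusted p = 0.0557). The median log2 difference of the list in AML was 0.21, against -0.046 over all genes. In bcCML none of the 19 passed limma's test, where 0.139% of all genes did. Of the 19, 0 had an unadjusted limma p under 0.05, against 900 of all 10817 genes. The median was -0.10 against -0.024. Between wild-type leukaemias 7 of the 19 were lower in bcCML, as Cxcr4 was, and 1 was higher, against 19.3% and 17.7% of all genes. Gnaq, a Gq-class alpha subunit, averaged 960 units in wild-type AML and 64.7 in wild-type bcCML, a log2 difference of -3.93 (limma adjusted p = 6.09e-07). The higher gene was Rgs18, a regulator of G protein signalling found in megakaryocytes (1.40; limma adjusted p = 0.000891).

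None of 16 genes for Cxcr4 uptake and degradation passed limma's test with Msi2 genotype. Of all genes 1.52% passed in AML and 0.139% in bcCML. In AML 2 of the 16 had an unadjusted limma p under 0.05, against 1538 of all 10817 genes. In bcCML 1 did, against 900. Between wild-type leukaemias 4 of the 16 were lower in bcCML and 2, Stam and Chmp4b, were higher, which is near the 19.3% and 17.7% of all genes. The lower ones included Itch, the ubiquitin ligase that marks Cxcr4 for degradation (-0.97; limma adjusted p = 0.00278), and Hgs, a sorting protein that takes the marked receptor to lysosomes (-1.09; limma adjusted p = 0.0103).

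The 37 tested effectors downstream of Cxcr4, which act on PI3 kinase, Rac and the actin skeleton, held no call in AML by limma. Of all genes 1.52% were called there. Among the effectors 5 had an unadjusted limma p under 0.05, against 1538 of all 10817 genes. Their median log2 difference was 0.13, with 28 estimates above 0. In bcCML 1 was called, where 0.139% of all genes were. Pik3r6, a regulatory subunit of the G protein-driven PI3 kinase, read 4.94, 11.8 and 5.40 units in wild-type and 68.6, 60.9 and 41.2 in Msi2 mutant bcCML, at least 3.48-fold higher in the mutant (limma adjusted p = 0.0184). The bound is taken against the 16-unit level, since all wild-type arrays were below it. It was called in 18 of 24 alternative fits. The other Pik3r6 probe set gave 0.98 and missed the threshold (limma adjusted p = 0.376). Between wild-type leukaemias 20 of 37 effectors were lower in bcCML and 2, Akt2 and Jak2, were higher, against 19.3% and 17.7% of all genes. Akt2 kept its call in 7 and Jak2 in 9 of 23 alternative fits. The list's median log2 difference was -0.44 against 0.0041. Lower genes included Rac2, the blood-cell Rac GTPase, at 11279 and 5832 units on average (-0.95; limma adjusted p = 0.000554), and Pik3cg, the catalytic PI3 kinase subunit driven by G proteins (-1.13; limma adjusted p = 0.00232). Vav1 and Dock2, which activate Rac, differed by -0.83 and -0.82.

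Of 5 tested transcription factors reported at the Cxcr4 gene, none passed limma's test with Msi2 genotype, where 1.52% (AML) and 0.139% (bcCML) of all genes did. An unadjusted limma p under 0.05 was found for 0 in AML and 1 in bcCML, against 1538 and 900 of all 10817 genes. Between wild-type leukaemias 2 of the 5, Nrf1 and Gfi1, were lower in bcCML and 0 were higher, against 19.3% and 17.7% of all genes. Nrf1, whose motif stands in the Cxcr4 window printed above, averaged 448 units in wild-type AML and 258 in wild-type bcCML, a log2 difference of -0.79 (limma adjusted p = 0.00423). Whether Nrf1 had a part in the Cxcr4 difference was not tested. Gfi1, a repressor of myeloid genes, differed by -2.41 (limma adjusted p = 0.0418; called in 13 of 23 alternative fits). Hif1a, which drives Cxcr4 in low oxygen, and its partner Arnt were not called in either comparison.

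**Figure D4:**
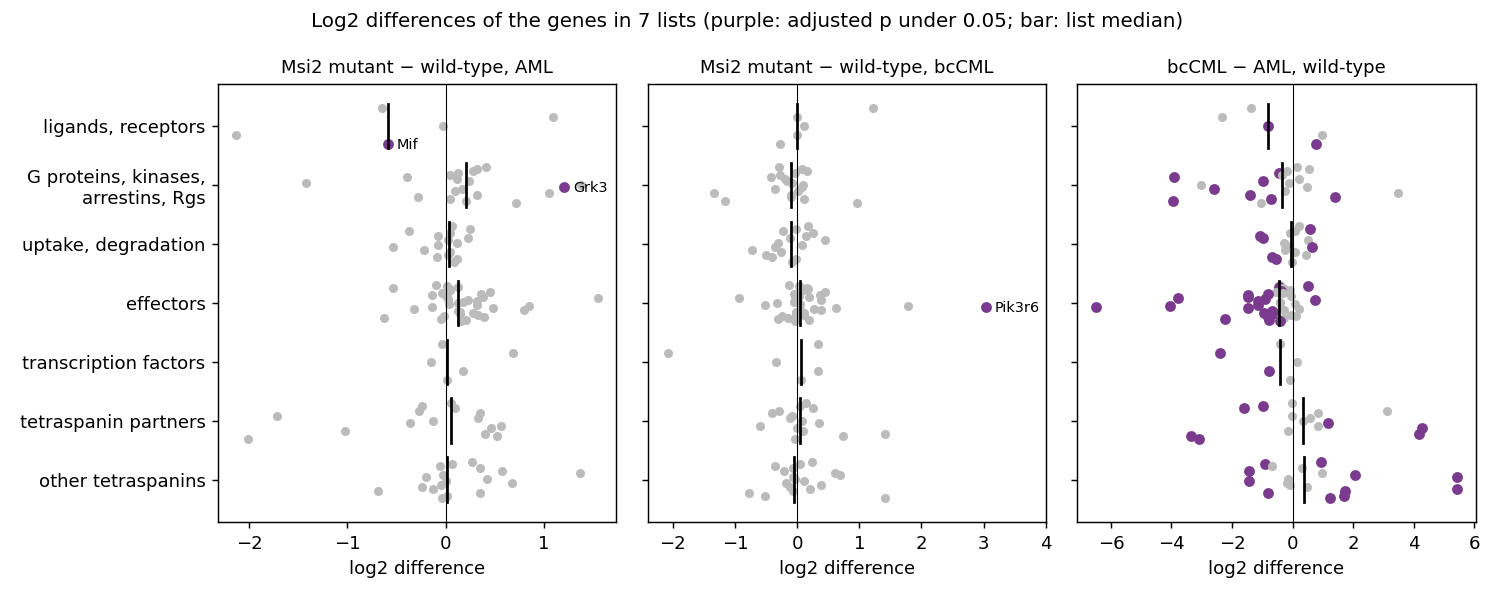
Log2 differences of the tested genes in 7 lists around Tspan3 and Cxcr4, in panels for Msi2 mutant minus wild-type in AML and in bcCML and for wild-type bcCML minus AML, each with its own horizontal scale (points are genes, purple where the limma adjusted p is under 0.05, and bars are list medians). Few genes are called with Msi2 genotype, and the effectors lie mostly below 0 between the leukaemias (median -0.44).

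On the Tspan3 side, 15 tested partners of tetraspanins held no call by limma in AML or bcCML, where 1.52% and 0.139% of all genes passed. An unadjusted limma p under 0.05 was found for 3 and 2 of them, against 1538 and 900 of all 10817 genes. Itgb1, the integrin beta subunit most tetraspanins gather, was not called in any of the comparisons between wild-type and mutant or between wild-type leukaemias. Cldn11, the claudin found with Tspan3 in other tissues, was at the floor in all groups. Between wild-type leukaemias Itga6, Itgb3 and Prkca were higher in bcCML, as Tspan3 was, and Ptgfrn, Adam17, Prkcb and Cd44 were lower. These 3 and 4 of 15 are near the 17.7% and 19.3% of all genes. Prkca, a kinase that binds tetraspanins, was at least 8.55-fold higher (limma adjusted p = 6.65e-07).

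Of 18 other tetraspanins tested, none passed limma's test with Msi2 genotype, where 1.52% (AML) and 0.139% (bcCML) of all genes did. An unadjusted limma p under 0.05 was found for 3 in AML and 2 in bcCML, against 1538 and 900 of all 10817 genes. Their median log2 differences were 0.012 in AML and -0.045 in bcCML. Tspan3 was the family member called in AML. Between wild-type leukaemias 7 were higher in bcCML, in the direction of Tspan3, and 4 (Cd37, Cd82, Tspan5 and Tspan17) were lower, against 17.7% and 19.3% of all genes. Tspan4 was higher by 1.74 (limma adjusted p = 0.000346) and Tspan33 was at least 18.0-fold higher (limma adjusted p = 0.000290). A further 10 tetraspanins on the array did not pass the filter on dim genes. Whether Tspan3 differed from its relatives in AML was not tested.

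By the Pearson correlation of log2 levels over the 12 arrays, the genes most like Tspan3 were Ppp1r14b (0.982), Wdr74 (0.980), Slc25a4 (0.980), Tut1 (0.978) and Atp5md (0.975), and 263 genes exceeded 0.9. The arrays share their group structure, and after group means were removed the 5 correlations were 0.829 to 0.923. The genes were picked by their correlation on these same arrays, so the values only describe. Msi2 mutant AML array 1, where Tspan3 was lowest, was not left out of these correlations. Slc25a4, a mitochondrial ADP/ATP carrier, was itself lower in Msi2 mutant AML, at 2915 and 872 units on average (-1.79; limma adjusted p = 0.0132). The genes most like Cxcr4 were Cdkn1b (0.959), Slain2 (0.947), Cdc42ep3 (0.945), Mark2 (0.944) and Pikfyve (0.943), with 57 genes above 0.9 and 0.726 to 0.906 after group means were removed. None of these 5 passed limma's test with Msi2 genotype in AML, where their adjusted p values were 0.625 to 0.950.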

How the data were processed

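RNA of 12 sorted mouse samples was measured on 1 Affymetrix array each, in 4 groups of 3 that the titles call biological replicates. The authors deposited linear intensities per probe set. The submitters' processing notes name GCRMA, whose version is not given in the sources used here. This method presses dim probe sets onto a floor, so a fall that reaches the floor is measured only in part. The number of arrays limits the precision.

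Of 45037 probe sets, 34945 had 1 gene symbol, 932 had several and 9160 were unlisted in the annotation table, and 34741 of the first kind matched RefSeq by gene ID. Genes with log2 above 4 (16 units) on at least 3 arrays were tested, each by its brightest probe set, which left 10817. Group means were fitted in limma 3.58.1 (R 4.3.3) over all 12 arrays (8 residual and 2.19 prior degrees of freedom), with two-sided tests, Benjamini-Hochberg adjustment over all genes and a threshold of 0.05. The fit was tested on simulated data. Alternatives were no filter or a stricter one, a pseudocount of 16, median centring, quantile normalization, the mean of a gene's probe sets, every probe set, only the 6 arrays compared, limma-trend, array weights, a replicate block and leaving out each array. Where every array of the lower group was below 16 units, ratios are bounds against that level. The members and gene lists were chosen with earlier results of these data known, so neither is independent evidence. Named were, from each list, genes called in a comparison or up to 4 with the smallest p, and the 5 genes most correlated with each member. Promoter windows were taken from RefSeq (GRCm38.p6), and the motif shares from all its windows of that length.

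Replicate numbers recur in all groups. Deviations of same-numbered arrays correlated at 0.396, 0.364 and 0.278 in bcCML, which was read as pairing on the data alone, and at -0.055, -0.121 and -0.030 in AML, which was not. The main fits, those of bcCML included, held no replicate block, so they ignore such pairing. Blocks were used only in alternative fits. No 2 arrays shared more than 14.7% of values.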

Additional observations from a re-analysis of the deposited data

How the results depend on the processing

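The wild-type difference between the leukaemias kept its direction and call in all 23 alternative fits for Tspan3 (1.59 to 2.05) and for Cxcr4 (-0.92 to -0.70), and the Msi2 mutant one did so for Tspan3. For Cxcr4 the mutant difference kept its call in 19 of 23, ranged from -0.89 to -0.50 as single arrays were left out, and was -0.68 (limma adjusted p = 0.0668) with only the 6 mutant arrays. Tspan3 in AML was lower in all 23 and called in 10. It was -2.26 without a filter, with every probe set and with only the 6 AML arrays (limma adjusted p = 0.1, 0.0530 and 0.272). The SE was 0.59 with only the 6 AML arrays and 0.46 in the main fit. With single arrays left out the difference was -2.70 to -1.64. The pseudocount of 16 gave smaller Tspan3 differences, of -1.48 in AML (limma adjusted p = 0.0292), 0.92 for the interaction and 2.53 between the mutants. The Tspan3 shared effect was called with array weights at -1.14 (limma adjusted p = 0.0157), and was -1.65 to -1.12 with single arrays left out. Array weights turned the sign of Cxcr4 in AML (0.22) and of its interaction (-0.16), neither called. Leaving out single arrays gave Cxcr4 -0.13 to 0.089 in AML, -0.099 to 0.29 in bcCML, -0.060 to 0.13 for the shared effect and -0.078 to 0.31 for the interaction. Tspan3 in Msi2 mutant bcCML against wild-type AML passed with a pseudocount of 16 (1.06), quantile normalization (1.33), array weights (1.31) and the replicate block (1.21; limma adjusted p = 0.0486), and without Msi2 mutant AML array 1 or 3 (limma adjusted p = 0.00552 and 0.0366). The causes were not tested.

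The replicate block otherwise changed no call of Tspan3 or Cxcr4 (Tspan3 in AML, limma adjusted p = 0.0453). A block for the bcCML arrays alone, added after the data were seen, left Tspan3 in bcCML at 0.792 and Cxcr4 at 0.934 (limma adjusted p). With the block Mif, Grk3, Cd93 and Ltf lost their AML calls (limma adjusted p = 0.0902, 0.0890, 0.0636 and 0.0890). Genes called in AML numbered 164, but 105 without a filter, 1053 with array weights and 0 with only 6 arrays (limma; 1207 at an unadjusted p under 0.05), and 43 to 182 with single arrays left out. In bcCML they numbered 15, but 8 with a stricter filter, 25 with the pseudocount, 9 with the mean of probe sets, 8 with limma-trend, 71 with array weights, 42 with the bcCML block and 0 with only 6 arrays (limma; 1042 unadjusted), and 7 to 22 with single arrays left out. The shared effect had 51 calls, but 77 with every probe set, 84 with limma-trend, 750 with array weights, 22 with the block and 4 to 122 with single arrays left out. The interaction had 0 (limma; 1014 unadjusted), but 5 without a filter, 4 with a stricter one, 3 with the pseudocount, 4 with quantile normalization, 2 with every probe set, 126 with array weights, 28 with the bcCML block and up to 21 with single arrays left out. Between wild-type leukaemias 3996 genes were called, 7524 probe sets with every probe set and 6122 genes with array weights. Between mutants there were 4875, and 9651 probe sets. Msi2 mutant bcCML against wild-type AML had 4023, and 7741 probe sets.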

Other observations

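Genes of marrow homing and retention other than Cxcr4 were also read. In AML 1 of 16 tested was called, where 1.52% of all genes were. Cd93, a surface lectin of progenitors and myeloid cells, read 8769, 9064 and 7646 units in wild-type and 3197, 3001 and 3562 in Msi2 mutant AML, a log2 difference of -1.38 ± 0.27 (SE; limma adjusted p = 0.0396; called in 10 of 23 alternative fits). In bcCML none of the 16 passed limma's test, where 0.139% of all genes did. Of the 16, 3 had an unadjusted limma p under 0.05, against 900 of all 10817 genes. The Cd93 difference in bcCML was -0.68 (limma adjusted p = 0.574). Between wild-type leukaemias 6 of the 16 were lower in bcCML and 2 were higher, against 19.3% and 17.7% of all genes. Itgb2, the beta 2 integrin of leukocytes, differed by -1.99 (limma adjusted p = 0.00114) and Adgrg1, an adhesion receptor of stem cells, by 4.80 (limma adjusted p = 3.11e-05).

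Among 19 other chemokine receptors on the array, 13 did not pass the filter on dim genes and 6 were tested. None passed limma's test with Msi2 genotype, where 1.52% (AML) and 0.139% (bcCML) of all genes did. An unadjusted limma p under 0.05 was found for 1 in AML and 0 in bcCML, against 1538 and 900 of all 10817 genes. Between wild-type leukaemias 1 of the 6, Ccr2, was lower in bcCML and 0 were higher, against 19.3% and 17.7% of all genes. Ccr2, the receptor that draws monocytes, read 1788, 2913 and 1353 units in wild-type AML and 286, 262 and 275 in wild-type bcCML. Its log2 difference was -2.81 (limma adjusted p = 0.00153), the direction of Cxcr4.

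A pair of genes of the Cxcl12 list varied widely between arrays of 1 group. Dpp4 read 167, 3233 and 1264 units in wild-type AML and 91.5, 485 and 183 in Msi2 mutant AML. Its Msi2 mutant bcCML arrays read 1366, 2936 and 1267 units, higher than in Msi2 mutant AML by a log2 difference of 3.10 (limma adjusted p = 0.0256; called in 18 of 23 alternative fits). Cd74 read 51.9, 335 and 605 units in wild-type bcCML and 54.7, 2501 and 971 in Msi2 mutant bcCML.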
